A study of Mus musculus with 48 samples.

Results

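The injected dentate gyrus of saline-treated mice was compared between day 3 and day 14 after surgery, to describe how the control tissue of the study differs between early and late recovery from surgery. A change that is present on both days would cancel in this comparison. The comparison rests on 8 of the 48 libraries of the series, chosen by their labels as ipsilateral, saline and day 3 (mice 29, 37, 18 and 41) or day 14 (mice 24, 28, 39 and 31), with 1 library a mouse and 4 different mice a day. All were wild-type C57BL/6J mice, aged 6 to 8 weeks by the series text and somewhat older by the methods, with 2 males and 2 females in each group. Each mouse received sterile saline, the vehicle of the kainate used in the rest of the series, into the hippocampus of 1 hemisphere through a burr hole under isoflurane, and food with acetaminophen afterwards. The groups hold no mouse without surgery, so the day 14 mice, which had the same operation, and the contralateral side are the reference. The dorsal dentate gyrus of each hemisphere was microdissected separately and not pooled, and polyadenylated RNA was sequenced. The study names the ipsilateral side the epileptogenic zone (EZ) and the contralateral side the peri-ictal zone (PIZ), and both names are kept here although these mice had no kainate and showed no behavioral seizures. The PIZ of the same mice and the day 7 saline mice served for comparison.

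The 8 EZ libraries held 20140818 to 23355037 assigned reads, and 19810 genes had enough reads to be tested. Libraries of the same day had Spearman correlations of 0.989 or more over these genes. Xist exceeded 100 CPM (counts scaled to the library total after TMM normalization) in 2 of 4 libraries of each day. The labels give no sex, and the methods state 2 males and 2 females a group. The granule cell list (13 markers) summed to between 1379 and 1873 CPM in the 8 EZ libraries, with Prox1, the transcription factor that marks granule cells, between 223.6 and 303.4 CPM. The PIZ libraries of mouse 18 (day 3) and mouse 39 (day 14) stood apart, with granule cell sums of 951 and 847.5 CPM against 1389 to 1800 CPM in the other PIZ libraries. Counts of calls and medians that use the PIZ are therefore also given without both.

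A needle that passes through cortex and hippocampus opens vessels and severs processes. Microglia, the resident phagocytes of the brain, move to such a site, divide and take up debris, and astrocytes around it enlarge and raise their intermediate filaments, which is known as reactive gliosis. Much of this response is known to be transient. In a bulk sample, more cells of a type and more RNA per cell cannot be told apart, and that holds for every result below.

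At day 3 the EZ differed from day 14 mainly by genes that were higher. With a differentially expressed gene (DEG) defined as one with an adjusted p under 0.01 in edgeR's quasi-likelihood test and a fold change over 1.5, 189 genes were upregulated at day 3, which is 0.954% of the genes tested, and 8 were downregulated, or 0.0404% (197 in all, 0.994%). The 189 genes were 185 protein-coding genes and 4 others, with a median log2 fold change of 1.02, against 0.00 over all genes tested. Of them, 98 were over 2-fold and 14 over 4-fold higher. The 4 values of day 3 lay above all 4 values of day 14 for 185 of the 189, and the same was true of 5.37% of all genes tested. The reverse order, day 3 below day 14, was found for all 8 downregulated genes and for 4.18% of all genes. The called genes were chosen on these same libraries, so their separation is a description and no further support. At an unadjusted p under 0.05 there were 2665 genes, or 13.5% of those tested, which is the background for the list counts at that level. Members of the astrocyte, microglia, complement and mitosis lists were among them, and no gene of any neuronal list was called.

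The number of calls differed with the libraries in the fit. With the 8 compared libraries alone, 18 genes were called (17 up, 1 down), and with all 48 libraries, kainate mice included, edgeR called 0, with 1236 genes at an unadjusted p under 0.05. The upregulated genes had a median biological coefficient of variation of 0.16 in the 24 saline libraries with 18 residual degrees of freedom, 0.182 in the 8 libraries with 6, and 0.377 in all 48. DESeq2 and limma-voom on the saline libraries called 271 and 295 genes, and these contained 195 and 196 of the 197. The PIZ libraries of mice 18 and 39 enter the shared estimate of the spread. Without them 226 genes were called (213 up, 13 down), which included all 197. With the 8 libraries the list counts given in the paragraphs on each list became 3 for reactive astrocytes, 1 each for homeostatic microglia and complement, and 0 for mitosis, activated microglia and the annexins and S100A genes. With all 48 they were 0 for each of these 6 lists. Leaving out 1 mouse gave 69 genes without mouse 31, 75 without mouse 29, 98 without mouse 39, 102 without mouse 24, 106 without mouse 41, 125 without mouse 28, 154 without mouse 37 and 319 without mouse 18.

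The day 3 mice differed in the size of the response. Mouse 29 had the highest value of the 4 for 186 of the 189 upregulated genes, and mouse 18 the lowest for 169. The median difference of these genes from the day 14 mean was 1.52 log2 units in mouse 29, 0.96 in mouse 41, 0.86 in mouse 37 and 0.52 in mouse 18. Without mouse 29 it was 0.78 over the other 3 mice, and the fit without that mouse called 74 genes higher. The genes were chosen on these same mice, so these medians are a description. In the plot of medians by library, the EZ of the 4 day 7 mice lay between 0.11 and 0.27.

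**Figure D1:**
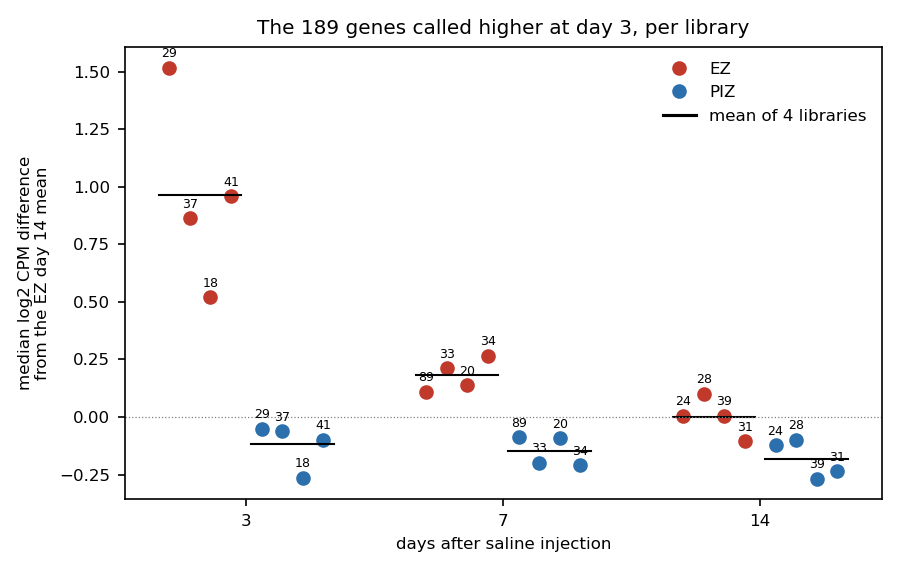
Each point is 1 library (labelled by mouse), placed at the median log2 CPM difference of the 189 genes called higher at day 3 from their EZ day 14 mean, by days after saline injection (x axis) and side; black lines are means of 4 libraries. The genes were chosen on the EZ day 3 and day 14 values, so the gap between those groups is a description. The EZ day 3 points span 0.52 to 1.52, whereas every PIZ point lies between -0.27 and -0.05.

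Astrocyte genes were among the most clearly changed. Gfap, the intermediate filament that defines reactive astrocytes (chr11:102778159-102791738, GRCm39), was measured at 3197, 1660, 1293 and 2146 CPM in mice 29, 37, 18 and 41 at day 3. At day 14 it was at 466.7, 484, 513.6 and 413 CPM in mice 24, 28, 39 and 31. All 4 day 3 values lay above all 4 day 14 values, with mouse 18 the nearest, and the log2 fold change was 2.14 ± 0.22 (SE, n = 4 mice a day, adjusted p = 5.95e-06). Vim, which encodes the filament protein vimentin (chr2:13578738-13587639), went from 29.5 to 38.6 CPM at day 14 to 197, 112, 76.2 and 149 CPM at day 3, a log2 fold change of 1.94 ± 0.19 (adjusted p = 5.95e-06). Hspb6, a small heat shock protein, rose by 2.26 ± 0.23 with the same adjusted p, from between 2.26 and 3.38 CPM to between 8.10 and 20.5 CPM. In these genes mouse 29 was the highest and mouse 18 the lowest at day 3, and the groups did not overlap.

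Of the 25 genes of the reactive astrocyte list, all 25 had a positive log2 fold change, 8 were called and the median was 0.85. The called members besides Gfap and Vim included Serpina3n, a secreted serine protease inhibitor, at 1.71 ± 0.19 (286.8, 151.1, 111.1 and 202.6 CPM at day 3 and 50.7 to 65.4 at day 14), and S100a6, a calcium-binding protein, at 1.68 ± 0.21. Aspg, an asparaginase, and C4b, described with complement below, also passed. Emp1, a membrane protein, and S1pr3, a receptor for sphingosine-1-phosphate, completed the 8, at 1.15 and 0.97, and are named outside the rule. The count of 8 fell to 5 without mouse 29, 41, 24, 28 or 31, and was 12 without mouse 18. Lcn2, the secreted iron-carrier-binding protein lipocalin 2, had the highest estimate of the list, 5.40 ± 1.62, but did not pass (adjusted p = 0.0767). Cd44, the hyaluronan receptor, narrowly missed the threshold at 1.94 ± 0.44 (adjusted p = 0.0136).

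In the homeostatic astrocyte list, all 16 genes were positive with a median of 0.25, and 2 were called. Aqp4, the water channel of astrocyte endfeet, was at 420.8, 307.2, 282.8 and 343.5 CPM at day 3 and between 166.9 and 199.6 at day 14 (0.88 ± 0.14, adjusted p = 0.000981). Aldh1l1, a folate enzyme used as an astrocyte marker, rose by 0.61 ± 0.11 (adjusted p = 0.0022). Slc1a2, the main glutamate transporter, had nearly equal means of 3461 CPM at day 3 and 3389 CPM at day 14. Gja1, the gap junction protein connexin 43, differed by 0.42 ± 0.06 (adjusted p = 0.000453), which is below the fold change limit.

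**Figure D2:**
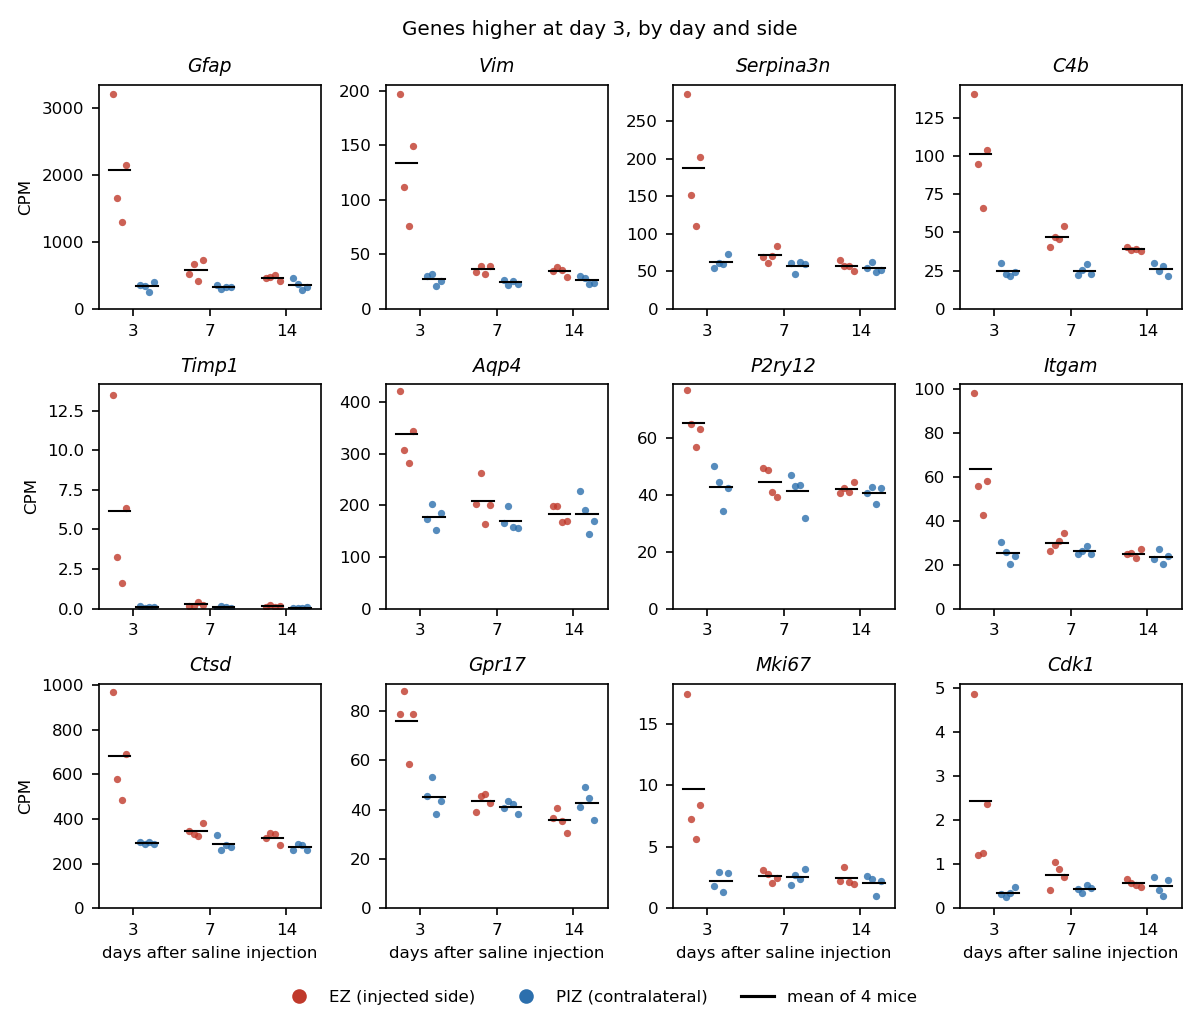
CPM (y axes, from 0) of 12 genes called higher at day 3, by days after saline injection (x axes), with 1 point a library, EZ in red, PIZ in blue and black lines for the mean of 4 mice. For Gfap the EZ day 3 points run from 1293 to 3197 CPM, and all EZ points of days 7 and 14 lie at or below 724.5 CPM.

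The genes with the largest fold changes were scarce at day 14. Timp1, a secreted inhibitor of matrix metalloproteinases (the only called member of the 15 matrix protease and inhibitor genes tested), had 310, 72, 38 and 134 reads at day 3 and 2, 5, 3 and 3 reads at day 14. Its log2 fold change was 5.29 ± 0.57 (adjusted p = 8.9e-06), a value that rests on very few reads at day 14. Tgm1, a transglutaminase that cross-links proteins, had 393, 74, 26 and 177 reads against 6, 3, 5 and 7 (4.90). Both genes were lowest in mouse 18 and highest in mouse 29 at day 3, and every day 3 count lay above every day 14 count. Glycam1, a secreted mucin-like protein, and Klk6, a secreted serine protease, followed at 3.12 and 2.93, and Spp1, the secreted phosphoprotein osteopontin, at 2.48 ± 0.43. For Spp1 the groups overlapped, with 2.50 CPM in mouse 18 at day 3 and 2.64 CPM in mouse 39 at day 14. Tgm1, Glycam1 and Klk6 are named after their values were seen.

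Related genes with shared sequence moved together and cannot be counted as independent. The Serpina3 family had 7 members tested and 5 called (Serpina3f, 3h, 3j, 3m and 3n, log2 fold changes of 1.71 to 2.17), and reads of its members can be assigned to each other. The family was looked at after the values were seen. Similarly, 6 called genes overlap another called gene on the same strand, namely Ctsd with Gm49369, Itgam with Gm49368 and S100a4 with Gm42674. C4a and C4b, and Lyz1 and Lyz2, are near-identical pairs. These pairs give the values of 1 locus or of 2 copies that the counts do not separate.

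Microglial genes made up a further group of calls. All 16 homeostatic microglia genes were positive, all 16 had an unadjusted p under 0.05, 9 were called, and the median log2 fold change was 0.64. Itgam, the alpha subunit of complement receptor 3, stood at 98.3, 55.7, 42.4 and 57.9 CPM at day 3 and 22.9 to 27.2 CPM at day 14 (1.34 ± 0.17, adjusted p = 5.18e-05). Csf1r, the receptor on which microglia depend for survival, was at 226.2, 157, 141.2 and 172.9 CPM at day 3 and 101.6 to 109.3 CPM at day 14 (0.70 ± 0.11). P2ry12, the nucleotide receptor that guides microglial processes, rose by 0.64 ± 0.11, from between 40.6 and 44.4 CPM to between 57 and 76.7 CPM. The other called members named by the rule were Olfml3 (1.14), Gpr34 (0.90) and Fcrl2 (1.23), and Aif1, the cytoskeletal protein used to stain microglia, rose by 0.94 ± 0.20. No gene of that list was lower at day 3. Summed over the list, mouse 29 reached 1249 CPM, the other day 3 mice 710.8 to 882.4 CPM and the day 14 mice 537.9 to 570.4 CPM. The count of 9 became 4 without mouse 29 or mouse 31, and 13 without mouse 18.

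Of the 23 tested genes of activated and phagocytic microglia, 8 were called and the median was 0.65. Ctsd, the lysosomal protease cathepsin D, was at 970.1, 580.4, 483.3 and 691.9 CPM at day 3 and 281.6 to 336.9 CPM at day 14 (1.11 ± 0.13, adjusted p = 2.89e-05). Cd68, a lysosomal membrane protein of phagocytes, rose by 0.88 ± 0.17, and Tyrobp, the signalling adaptor of TREM2, by 0.83 ± 0.15. Cd9 and Cd63, both tetraspanins of membranes and vesicles, rose by 0.89 and 0.75. Apoe was the lowest of the list at -0.17 ± 0.08 and did not pass (adjusted p = 0.376). The count was 3 without mouse 29 or 24, 2 without mouse 31, 4 without mouse 41 and 12 without mouse 18.

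Grn and Abca1, which belong to no list, were among the genes with the smallest p. Grn, which encodes the lysosomal protein progranulin, rose by 0.93 ± 0.11 (73.8 to 129.9 CPM at day 3, 47.5 to 54 CPM at day 14). Abca1, the transporter that exports cholesterol, was at 74.4 to 95 CPM against 50.4 to 54.9 CPM (0.66 ± 0.07, the smallest error among the called genes). Of 11 cathepsin genes tested, 4 were called, Ctsd and Ctss of the list above included, and all 11 were positive. Of 5 immunoglobulin Fc receptor genes (Fcgr family and Fcer1g), 4 were called. Both families were picked after their values were seen.

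Of 13 complement genes tested, 4 were called, all 13 were positive and the median was 0.87. C4b, part of the classical pathway, was at 140.6, 94.9, 65.7 and 103.8 CPM at day 3 and 37.8 to 40.7 CPM at day 14 (1.37 ± 0.16, adjusted p = 1.94e-05). All 3 chains of C1q, the molecule that starts that pathway, were called, with log2 fold changes of 0.72 (C1qa), 0.95 (C1qb) and 0.86 (C1qc). C3, the central component, had 1.57 ± 0.41 and did not pass (adjusted p = 0.0327). The count of 4 was 2 without mouse 29, 41, 24, 28 or 39, 1 without mouse 31 and 9 without mouse 18.

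The remaining immune and inflammatory lists held few calls or none. None of 24 interferon response genes, 15 antigen presentation genes or 12 chemokine and cytokine genes was called, with medians of 0.31, 0.15 and 0.60. Of these genes, 24, 14 and 11 were positive, and 8, 4 and 5 had an unadjusted p under 0.05. Of 15 acute phase and STAT3 response genes, 2 were called, Timp1 and Serpina3n. Of 10 tested macrophage and monocyte markers, 1 was called, Lyz2, which encodes lysozyme and is also made by microglia, at 1.17 ± 0.21, and the list median was 0.79. Only 10 of its 16 listed genes, 2 of 11 neutrophil genes and 3 of 19 lymphocyte genes had enough reads to be tested. Summed macrophage and monocyte marker CPM ran from 100.6 to 164.5 at day 3 and from 72.4 to 98.1 at day 14. The part that cells from the blood had in the microglial values was not tested.

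Cell division genes gave the highest median of all lists. All 28 mitosis genes were positive, 25 had an unadjusted p under 0.05, 11 were called and the median log2 fold change was 1.32. Mki67, the proliferation antigen Ki-67, was at 17.4, 7.24, 5.64 and 8.43 CPM at day 3 and at 2.21, 3.38, 2.15 and 2.01 CPM at day 14, and its groups did not overlap (1.99 ± 0.31, adjusted p = 0.000649). Cdk1, the kinase that drives entry into mitosis, had 112, 27, 29 and 50 reads at day 3 and 14, 12, 12 and 10 reads at day 14 (2.10 ± 0.38). Ccnb1, its partner cyclin B1, rose by 1.81 ± 0.35, Prc1, which bundles spindle microtubules, by 2.10 ± 0.37, and the spindle proteins Kif20a and Tpx2 by 1.73 and 1.32. These are low-count genes. The count of 11 fell to 1 without mouse 31 or 39, 2 without mouse 29, 4 without mouse 41 or 24 and 7 without mouse 28, and was 16 without mouse 18. With glmTreat, which tests against a fold change of 1.5, the count was 0 for this list and for both microglial lists, 1 for complement, 2 for the annexins and S100A genes and 5 for reactive astrocytes.

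Of 25 DNA replication genes tested, 22 were positive with a median of 0.13, and 1 was called, Uhrf1, which keeps DNA methylation in place after replication, at 1.13 ± 0.24. Rrm2, a ribonucleotide reductase subunit, had 1.06 ± 0.31 (adjusted p = 0.0717). None of 17 genes of neurogenesis and immature neurons was called (1 at an unadjusted p under 0.05), and Dcx, the microtubule protein of new neurons, was at 23.9 to 32.2 CPM at day 3 and 27.1 to 31.2 CPM at day 14 (-0.05 ± 0.14).

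Promoters of cell division genes are known to hold CCAAT boxes and the cell cycle homology element TTTGAA. Upstream sequence of RefSeq (build GRCm38.p6, the 250 bases before the gene start) was found for 23 of the 28 mitosis genes. The letters CCAAT, on either strand, were in 19 of these 23 (82.6%) and in 39.9% of the 12174 tested genes with such a sequence, and at least 2 copies were in 12 of the 23 (52.2%) against 14.5%. TTTGAA was in 8 of 23 (34.8%) against 13.1%. Of the 20 DNA replication genes with a sequence, 12 (60.0%) had CCAAT. For comparison, the STAT letters TTCNNNGAA and the AP-1 letters TGANTCA were in 2 and 3 of 22 reactive astrocyte promoters (9.09% and 13.6%) against 7.02% and 5.52% of all, and in none of those of Gfap, Vim and Timp1. Such a match describes the letters only. The promoters of the proliferation marker Mki67 and of the kinase and cyclin pair Cdk1 and Ccnb1, chosen as the best known of the called mitosis genes, are shown 5′ to 3′ up to the base before the start, all on the minus strand, with CCAAT, its reverse complement ATTGG and TTTGAA in capitals. They are Ccnb1 at chr13:100786487-100786736, Cdk1 at chr10:69352913-69353162 and Mki67 at chr7:135716380-135716629.
Ccnb1: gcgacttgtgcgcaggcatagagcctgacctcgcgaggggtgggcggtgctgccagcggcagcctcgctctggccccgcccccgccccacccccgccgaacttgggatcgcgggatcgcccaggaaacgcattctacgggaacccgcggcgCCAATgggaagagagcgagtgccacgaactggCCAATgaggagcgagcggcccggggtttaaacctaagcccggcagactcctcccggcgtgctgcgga
Cdk1: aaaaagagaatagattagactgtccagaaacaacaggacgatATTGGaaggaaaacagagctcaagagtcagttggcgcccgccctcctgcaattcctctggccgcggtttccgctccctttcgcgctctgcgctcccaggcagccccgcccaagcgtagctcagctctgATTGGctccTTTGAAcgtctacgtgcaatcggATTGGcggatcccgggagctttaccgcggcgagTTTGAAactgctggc
Mki67: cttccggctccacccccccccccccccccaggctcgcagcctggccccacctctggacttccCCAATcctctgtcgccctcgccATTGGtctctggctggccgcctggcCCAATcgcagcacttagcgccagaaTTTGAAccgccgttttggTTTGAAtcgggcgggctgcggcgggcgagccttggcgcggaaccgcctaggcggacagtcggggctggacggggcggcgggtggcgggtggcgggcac
Ccnb1 held 2 copies of CCAAT, and Cdk1 and Mki67 3 each, besides 2 copies of TTTGAA in both.

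Of 15 calcium-binding annexin and S100A genes tested, 13 were positive and 6 were called, with a median of 0.68. S100a4, known from motile cells, was at 8.92, 4.57, 2.67 and 6.86 CPM at day 3 and 0.92 to 1.86 CPM at day 14 (2.10 ± 0.29). S100a11 and S100a10 rose by 1.36 and 1.06, S100a13 by 0.68 and Anxa3 by 0.72. The count was 3 without mouse 29, 24 or 31, 4 without mouse 41, 28 or 39 and 9 without mouse 18.

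**Figure D3:**
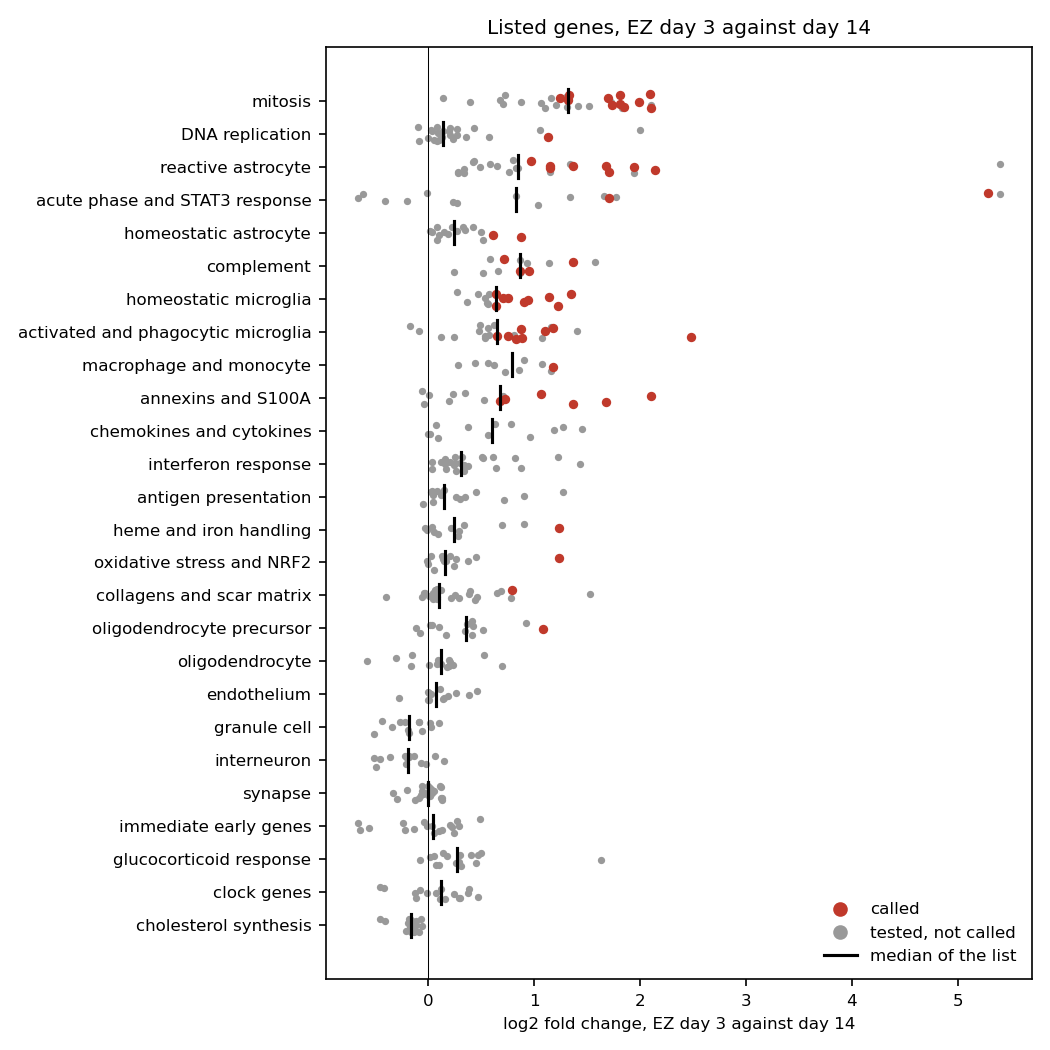
Log2 fold change of EZ day 3 against day 14 (x axis) for each tested gene of 26 lists (rows), with called genes in red, other genes in grey and black bars for list medians; vertical scatter within a row has no meaning. Mitosis genes have the highest median, 1.32, and the rows of neuronal and synaptic genes hold no red point.

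In the oligodendrocyte and oligodendrocyte precursor lists a single gene was called. Gpr17, a receptor of precursors that are about to differentiate, was at 79, 88.2, 58.4 and 78.6 CPM at day 3 and 36.7, 40.7, 35.4 and 30.5 CPM at day 14 (1.09 ± 0.12, adjusted p = 8.9e-06). It was one of 3 upregulated genes, with Susd5 and Arhgap11a, for which mouse 29 was not the highest at day 3. The precursor list had a median of 0.36, with 12 of 14 genes positive and 6 at an unadjusted p under 0.05. Its other 13 genes did not pass. Summed over the list, Gpr17 included, precursor CPM ran from 706.4 to 822.1 at day 3 and from 595 to 718.6 at day 14. None of 15 oligodendrocyte genes was called, and Mbp, a myelin protein, ranged from 1045 to 1360 CPM at day 3 and from 1021 to 1432 CPM at day 14.

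Several further lists held a single call. Hmox1, which degrades heme, was at 16.5, 7.06, 5.04 and 11.8 CPM at day 3 and 3.70 to 4.92 CPM at day 14 (1.23 ± 0.25) and was the only called gene of both the heme and the NRF2 lists, in which 5 of 12 and 6 of 14 genes had an unadjusted p under 0.05. Sparc, a matrix-binding glycoprotein, was the only one called of 26 collagen and scar matrix genes (0.79 ± 0.16), of which 22 were positive and 7 had an unadjusted p under 0.05. Igfbp2, which binds insulin-like growth factors, was the only one called of 15 meningeal genes (1.33 ± 0.21). Col1a1 did not pass, with 5.34 to 7.00 CPM at day 3 and 4.30 to 9.23 CPM at day 14. Single genes passed in the hypoxia and glycolysis list (Hk2, hexokinase 2, 0.73 ± 0.15), the p53 and cell death list (Casp8, an initiator caspase, 0.78 ± 0.16) and the regeneration list (Tubb6, a tubulin, 1.76 ± 0.37). Csf3r, the receptor for granulocyte colony-stimulating factor, was called in the neutrophil list (0.94 ± 0.19), and the only other neutrophil gene tested had a value of -0.08. No gene was called among 14 endothelial, 17 vessel growth, 11 pericyte, 18 heat shock, 16 glucocorticoid response, 16 clock, 34 Wnt or 21 TGF-beta genes.

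Neuronal genes did not pass in either direction. No call was made among 13 granule cell, 7 mossy cell, 10 CA1, 9 CA3 and 14 interneuron markers, 23 synaptic genes and 18 immediate early genes, with medians between -0.19 and 0.32. Prox1 differed by -0.06 ± 0.21. All 18 cholesterol synthesis genes had negative values, with a median of -0.16, 5 at an unadjusted p under 0.05 and 0 called. Summed granule cell CPM was 1379 to 1707 at day 3 and 1446 to 1873 at day 14. Marker lists of thalamus, neocortex, choroid plexus and ependyma, tissues that dissection could include, also had no called gene. Summed CA1 marker CPM was uneven, at 324.8 to 585.1 at day 3 and 249.2 to 610.3 at day 14. Ependyma markers summed to 26.04 CPM in mouse 41 at day 3 and 9.05 to 12.3 CPM in the other compared libraries. Sums for thalamus (151 to 175.4 CPM), neocortex (187.7 to 216.3 CPM) and choroid plexus (22.59 to 31.72 CPM) varied less. Whether dissection was even was not tested, and the lack of calls does not show it.

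The 8 downregulated genes belonged to none of the lists. Their number was 0 without mouse 31, 1 without mouse 29 or with the 8 libraries alone, 2 without mouse 37, 41, 24 or 39, 5 without mouse 28 and 7 without mouse 18, and DESeq2 called 22. C1qtnf4, a secreted protein related to C1q and tumor necrosis factor, was at 16.4, 21.7, 23 and 22.4 CPM at day 3 and 39, 33.4, 81.1 and 42.8 CPM at day 14 (-1.24 ± 0.26, adjusted p = 0.00866). Crocc, the rootletin of the ciliary rootlet, was at 42.2 to 52.7 CPM against 71.8 to 78.6 CPM (-0.66 ± 0.14). Scand1, a SCAN domain protein, had 22, 23, 35 and 37 reads against 96, 37, 212 and 97 (-1.96 ± 0.42). The remaining genes were the histone gene H2ac18 (-1.05), the EF-hand gene Efcab15 (-1.35), the transcripts C230034O21Rik (-0.66) and AW047730 (-0.60), and Gm25632, which had at most 14 reads in any of the 8 libraries. Their median GC content was 59.4% against 49.0% for all genes tested, and the PIZ moved in the same direction for 7 of the 8 (median log2 fold change -0.40, and for all 8 with a median of -0.37 without the PIZ libraries of mice 18 and 39). The day 7 mean lay between those of day 3 and day 14 for all 8. When counts were adjusted for base composition and length, 5 genes were called lower.

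**Figure D4:**
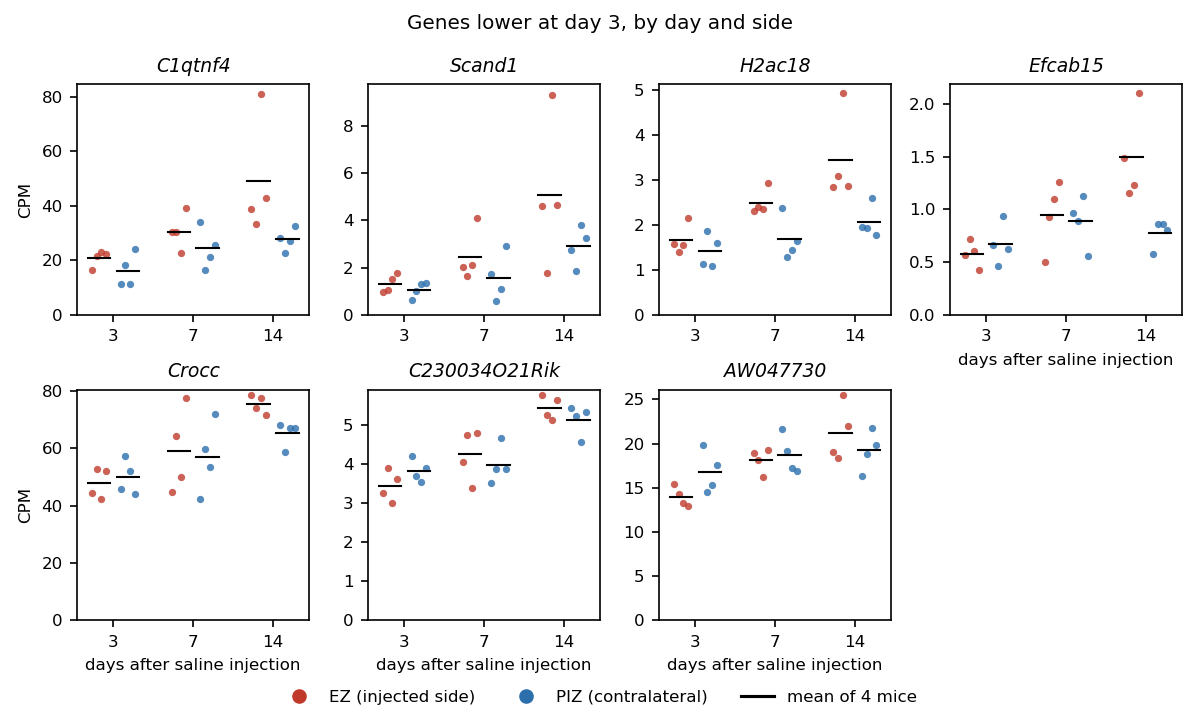
CPM (y axes, from 0) of 7 of the 8 genes called lower at day 3, by days after saline injection (x axes), with 1 point a library, EZ in red, PIZ in blue and black lines for the mean of 4 mice; Gm25632 is left out for its few reads. For C1qtnf4 the EZ day 14 points include 81.1 CPM in mouse 39, and all EZ day 3 points lie at or below 23 CPM.

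Day 7 was also compared with both days. Between EZ day 3 and day 7, 81 genes were called (0.409% of those tested), all higher at day 3, and 76 of them were among the 189. Between day 7 and day 14, 0 genes were called by edgeR, with 709 at an unadjusted p under 0.05, and DESeq2 and limma-voom called 1 gene each. These comparisons share the day 7 libraries with each other and the day 3 or day 14 libraries with the main comparison. The count of 81 was 31 without mouse 29, 41 without mouse 41, 202 without mouse 18 and 98 without the PIZ libraries of mice 18 and 39. The median log2 fold change of the 189 genes was 0.81 for day 3 over day 7 and 0.19 for day 7 over day 14, where 17 of them had an unadjusted p under 0.05. These genes were chosen for being lower at day 14 than at day 3, so the sign of those medians is no independent result. The 8 downregulated genes had medians of -0.57 and -0.41, and 6 of them had an unadjusted p under 0.05 for day 7 against day 14. Interferon response genes had a median of -0.05 for day 3 over day 7 and 0.45 for day 7 over day 14, with 23 of 24 positive in the latter and 0 called. Their summed CPM at day 7 was 225.6 in mouse 20 and 116.6 to 136.9 in the other 3 mice, against 105.1 to 137.7 at day 14, so mouse 20 stood apart. Gfap at day 7 was at 527, 671.7, 420 and 724.5 CPM, a range that includes all 4 day 14 values except the lowest. Mki67 at day 7 lay between 2.05 and 3.08 CPM, within the range of day 14, and Serpinf2, the plasmin inhibitor alpha-2-antiplasmin, was at 1.43 to 1.85 CPM, between day 14 (0.68 to 1.11) and day 3 (2.50 to 4.44).

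The PIZ of the same mice showed no call for day 3 against day 14 (0 genes, or 0%, by edgeR, DESeq2 and limma-voom). These methods had 1004, 930 and 1594 genes at an unadjusted p under 0.05. Without the PIZ libraries of mice 18 and 39 edgeR also called 0, with 1598 genes at an unadjusted p under 0.05. In the PIZ, Gfap was at 357.2, 336, 258.4 and 399.4 CPM at day 3 and 461.8, 373.8, 278.4 and 321.5 CPM at day 14, and the groups overlapped. The median PIZ log2 fold change of the 189 genes was 0.06, or 0.09 without those libraries. The difference of the day effect between sides passed for 9 genes (0.0454% of those tested), all of them among the 189 and all larger in the EZ. They were Gfap (2.23 ± 0.26), Hspb6 (2.43), Vim (1.90), Serpinf2 (2.65), C4b (1.46), C4a (1.38), Dhrs1, a dehydrogenase (1.08), Grn (0.93) and Gpr17 (1.01). For Serpinf2 the PIZ estimate was negative and did not pass (-0.79, adjusted p = 0.961). Its PIZ values were 0.61 to 0.80 CPM at day 3 and 1.37, 1.51, 0.43 and 1.40 CPM in mice 24, 28, 39 and 31 at day 14. Without the PIZ libraries of mice 18 and 39, 5 of the 9 genes were called. The test called 0 genes without mouse 41, 24, 28 or 31, 3 without mouse 37, 4 without mouse 39, 26 without mouse 18, and 35 by DESeq2. With the mouse as a block, since each mouse gave both sides, 20 genes were called (0.101%), all among the 189, and they included 7 of the 9 with Itgam, Aqp4, S100a4 and A2m among the additions. The block without the PIZ libraries of mice 18 and 39 gave 53 genes, which included all 9. These tests contain the EZ day 3 against day 14 contrast on the same libraries. The overlap with the 189 and the shared sign are therefore no independent result.

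**Figure D5:**
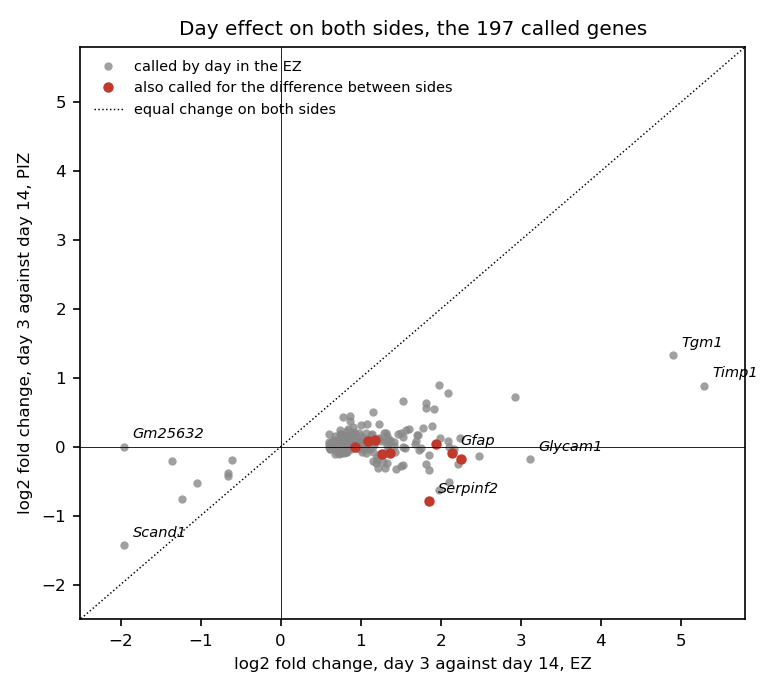
Log2 fold change of day 3 against day 14 in the EZ (x axis) and in the PIZ (y axis) for the 197 genes called in the EZ, with the 9 genes that also passed the test of the difference between sides in red. The genes were chosen on the x axis. Most upregulated genes lie near 0 on the y axis (median 0.06), and 7 of the 8 downregulated genes are below 0 on both axes.

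The 2 sides of the same mice can also be compared at each day. At day 3, 342 genes differed between EZ and PIZ (1.73% of those tested, with 340 or 1.72% higher and 2 or 0.0101% lower in the EZ), and 171 of the 189 genes were among these. The count was 256 without the PIZ libraries of mice 18 and 39 (146 of the 189 included), 188 without mouse 29 and 201 without mouse 41. At day 14, 0 genes differed by edgeR (1408 at an unadjusted p under 0.05), against 3 by DESeq2 and 0 by limma-voom. Without those PIZ libraries edgeR also called 0, with 661 genes at an unadjusted p under 0.05. The median EZ over PIZ log2 difference of the 189 genes was 1.16 at day 3 and 0.15 at day 14, and 1.13 and 0.16 without those PIZ libraries. These contrasts share the EZ libraries with the main comparison. With the mouse as a block, 373 genes were called at day 3 and 1 at day 14, Cst7, the protease inhibitor cystatin F (3.77 ± 0.40, adjusted p = 0.00337). Without the PIZ libraries of mice 18 and 39 the blocked counts were 458 and 0, and Cst7 did not pass (3.30 ± 0.44, adjusted p = 0.0338).

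At day 14, 3 genes came closest to a difference between EZ and PIZ. Cst7 had 28, 32, 53 and 15 EZ reads and 1, 5, 1 and 2 PIZ reads in mice 24, 28, 39 and 31. Clec7a, the beta-glucan receptor dectin-1, had 33, 43, 40 and 22 EZ reads and 10, 14, 2 and 2 PIZ reads, and Lag3, an immune checkpoint receptor, 221, 194, 205 and 158 against 107, 144, 87 and 109. In each of the 4 mice the EZ count exceeded the PIZ count for all 3 genes, which are named after their values were seen. Their adjusted p was 0.0366 each without the block, which misses 0.01, and 0.286 each without the PIZ libraries of mice 18 and 39. None of the 3 differed between day 3 and day 14 in the EZ by this test (log2 fold changes of 0.56, 0.53 and 0.00, adjusted p of 0.629, 0.493 and 0.999).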

How the data were processed

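Poly-A RNA libraries of 24 mice were prepared and sequenced by the authors. They trimmed reads with fastp 0.20.1, aligned them with HISAT2 2.2.1 to GRCm39, and counted them by strand on Gencode M28 with featureCounts (Subread 1.6.4), where overlapping genes can share a read and multi-mapping reads count at their primary alignment. The deposited values are raw counts per gene. All else was computed from these counts here. Identifiers were matched to Gencode M39 (98.9%). In R 4.3.3, edgeR 4.0.16 (filterByExpr, TMM, glmQLFit, glmQLFTest) was fitted to the 24 saline libraries with 6 group means and 18 residual degrees of freedom. The standard error was the log2 fold change divided by the square root of F, and adjusted p are Benjamini-Hochberg over all genes tested in a comparison. Log2 CPM used a prior count of 2. On data simulated with independent libraries and the fitted spread of each gene, 74% of 100 2-fold and 96% of 100 4-fold changes were called. In that setting there were 0 false calls. It has no pairing by mouse, so it gives no error rate for the calls above. Exact permutation of 4 against 4 mice cannot go below p = 0.0286. Members and lists were chosen with earlier results of these data known. Named genes were the 12 with the smallest p in each direction, called list members (at most 6 a list) or else the most abundant member, fixed anchors and the leading genes of the side tests, and any other gene was named after its values were seen. Both libraries of a mouse come from the same animal, and their residuals correlated between 0.047 and 0.435. Alternatives were fits of other library sets, DESeq2 1.42.0, limma-voom 3.58.1, other scaling, filters and thresholds, a mouse block, and each mouse left out, and, chosen after seeing the data, leaving out 2 PIZ libraries (with and without the block) and a GC and length correction.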

Additional observations from a re-analysis of the deposited data

Results flagged for a closer look

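The day effect differed between EZ and PIZ, by a test of the difference itself, for 9 genes. The difference was 2.23 for Gfap, 2.43 for Hspb6, 1.90 for Vim, 2.65 for Serpinf2, 1.46 for C4b, 1.08 for Dhrs1, 0.93 for Grn, 1.01 for Gpr17 and 1.38 for C4a, in log2 units.

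Of 178 sets of 4 values (the named genes at each day), 11 had a library far from the other 3, where chance gives about 1 in 20. In log2 CPM, mouse 29 stood apart at day 3 for C1qtnf4 (4.04, others 4.45 to 4.53) and Ntng1 (5.25, others 5.01 to 5.02), and mouse 18 for Flt1 (6.09) and Smad3 (6.72). At day 14, mouse 31 was low for C1qa (5.41) and Cd9 (4.99), mouse 39 high for H2ac18 (2.33) and Sparc (7.41), mouse 24 low for Smad3 (6.71) and high for Mbp (10.48), and mouse 28 low for Egr3 (6.37).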

How the results depend on the processing

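For the EZ between day 3 and day 14, 197 genes became 18 with the 8 compared libraries, 0 with all 48, 351 at an adjusted p under 0.05, 18 with glmTreat against a fold change of 1.5, and 69 to 319 with 1 mouse left out. All 48 libraries had a common coefficient of variation of 0.201 against 0.12 for the saline libraries. The 81 genes of day 3 against day 7 became 1, 0, 176 and 5 under those 4 settings, 144 with DESeq2 and 31 to 202 with 1 mouse left out. The 342 genes of EZ against PIZ at day 3 became 21, 6 and 64 with the compared libraries, all 48 and glmTreat, and 188 to 373 with 1 mouse left out. The 9 genes of the difference between sides became 0 with the compared libraries, all 48 or glmTreat, 35 with DESeq2, 14 with limma-voom, 22 without a filter, 29 at an adjusted p under 0.05, 20 with the mouse as a replicate block, 5 without 2 PIZ libraries, 53 with the block and without those libraries, and 0 to 26 with 1 mouse left out (0 without mouse 41, 24, 28 or 31, 26 without mouse 18). The 0 genes of day 7 against day 14 became 1 with DESeq2, limma-voom, no filter, an adjusted p under 0.05 or without those PIZ libraries. The 0 genes of EZ against PIZ at day 14 became 3 with DESeq2 or at an adjusted p under 0.05, 2 without a filter, 1 with the replicate block, alone or with the GC and length correction, and 0 to 1 with 1 mouse left out. The PIZ between days stayed at 0 in each. No named gene changed sign where called. Of the 59 called named genes, 59 passed with DESeq2, 58 with limma-voom, 28 without mouse 29, 24 without mouse 31, 12 with the compared libraries, 10 with glmTreat and 0 with all 48. The causes were not tested.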
